A study of Homo sapiens with 36 samples.

Results

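The 10 receptor genes through which myeloid cells receive growth factor and cytokine signals and that were followed here are FLT3, KIT, CSF1R, CSF2RA, CSF2RB, CSF3R, IL3RA, IL6R, IFNGR1 and IFNGR2. The rule that chose them is a list of names and holds no measured value, although it was proposed with earlier results of these data known. They make up 10 of the 35442 genes with a symbol in the deposited tables. RNA was sequenced in bulk from MOLM-13 cells and from MONO-MAC-6 cells. Both are established lines from human acute myeloid leukaemia that the labels give as wild type, and each is a single line. Whether a receptor gene is mutated in a line cannot be read from the deposited levels. MOLM-13 was treated for 72 h with DMSO (the vehicle) or with 0.125 µM A9, and MONO-MAC-6 for 72 h with DMSO or with 0.25 µM A9. A9 is a PROTAC, a compound that brings a ubiquitin ligase to its target proteins so that they are degraded. The design text names IKK2 and NR4A1 as its targets, while the title of the series names IKK1 and NR4A1. Each of the 4 groups holds 3 samples, and each sample is the mean of 3 libraries that share a first number in the labels, out of 36 libraries in all. Nothing in the labels says that samples came from separate cultures, so the p-values measure only the spread between these samples, which may be technical. Levels are TPM (abundance per transcript length, with the same total in every library). They can be set side by side between genes and between samples only as shares of that total. Scaling between samples moved some calls, as given below.

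Receptors of this kind fall into classes that signal differently. FLT3, KIT and CSF1R are receptor tyrosine kinases, single chains that carry their own kinase. CSF2RA and IL3RA bind GM-CSF and interleukin 3 and need the shared chain CSF2RB to signal. CSF3R is the G-CSF receptor and pairs with itself, IL6R binds interleukin 6 and hands it to the signalling chain IL6ST, and IFNGR1 with IFNGR2 forms the interferon gamma receptor. The cytokine receptors have no kinase and signal through JAK kinases and STAT transcription factors. Myeloid leukaemia cells commonly carry FLT3 and IL3RA (CD123), and both are drug targets, while CSF1R, CSF3R and the granulocyte and monocyte receptors mark later steps of myeloid maturation.

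Upstream sequences are shown for the receptor that was most above MOLM-13 in MONO-MAC-6 (FLT3), the receptor that was most below it (IL3RA), and the receptor called after A9 (IL6R). RefSeq (GRCh38.p14) promoter windows, running from 250 bases before to 50 bases after a gene start, were matched by symbol for 9 of the 10 receptors, CSF2RB being without an entry, and the 9 receptors had 12 windows. Only the bases upstream of both the RefSeq and the GENCODE 29 start are printed, 5′ to 3′ on the strand of the gene. FLT3 is from chr13:28100593-28100826 (minus strand), IL3RA from chrX:1336535-1336615 (plus strand) and IL6R from chr1:154405093-154405192 (plus strand). Capitals mark matches, on either strand, to the motifs described after the sequences.
FLT3: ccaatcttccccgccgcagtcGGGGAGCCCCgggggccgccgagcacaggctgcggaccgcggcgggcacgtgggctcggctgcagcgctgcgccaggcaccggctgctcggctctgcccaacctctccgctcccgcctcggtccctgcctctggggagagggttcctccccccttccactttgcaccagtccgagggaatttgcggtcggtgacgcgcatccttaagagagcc
IL3RA: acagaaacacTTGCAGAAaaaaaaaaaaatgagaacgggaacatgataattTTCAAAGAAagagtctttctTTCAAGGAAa
IL6R: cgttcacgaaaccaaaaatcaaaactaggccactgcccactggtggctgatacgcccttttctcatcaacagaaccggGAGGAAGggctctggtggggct

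The motifs searched on both strands were the kappaB consensus bound by NF-kB, GAGGAAG (a form of the PU.1 site), TTGCNNAA (a form of the C/EBP site) and TTCNNNGAA (the GAS element bound by STAT factors). The kappaB consensus was found in windows of FLT3, IFNGR1, IFNGR2 and CSF2RA, and in 5.91% of all 35116 promoter windows. In the FLT3 window it begins at -229 from the RefSeq start. GAGGAAG was found for CSF1R, CSF2RA, CSF3R and IL6R, where it begins at -172, and in 13.6% of all windows. TTGCNNAA was found for CSF3R, IFNGR1 and IL3RA, where it begins at -240, and in 10.5% of all windows. TTCNNNGAA was found for IL3RA alone among the receptors, at -199, -179 and 12, and in 7.66% of all windows. In the printed sequences no match of a motif overlapped a match of another motif. These matches describe letters in the windows and were not tested against the expression values.

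IL6R makes a membrane form and a form that lacks the membrane-spanning stretch, and the exon that separates them is shown because the gene was called after A9. The exon is number 9 of the 10 exons of IL6R-202, at chr1:154454488-154454581 (GRCh38, plus strand), and its 94 bases are in capitals between 20 bases of each neighbouring exon. IL6R-201 joins those neighbours directly, and since 94 is not a multiple of 3 the reading frame after the junction differs. Both sequences were read from the GENCODE 29 transcripts.
IL6R-202: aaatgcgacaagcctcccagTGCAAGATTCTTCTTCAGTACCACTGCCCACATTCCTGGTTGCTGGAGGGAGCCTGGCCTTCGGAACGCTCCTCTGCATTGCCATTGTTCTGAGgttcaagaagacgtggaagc
IL6R-201: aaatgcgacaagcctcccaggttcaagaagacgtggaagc

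The identity of the lines was checked with marker lists. All 7 myeloid markers (PTPRC, CD33, SPI1, LYZ, MPO, FCER1G, TYROBP) had a mean of at least 1 TPM in each of the 4 groups, and T cell, B cell, erythroid, megakaryocyte, epithelial and fibroblast markers each summed to at most 16.4 TPM in any sample. The 6 mast cell markers summed to at most 0.545 TPM in MOLM-13, but to 75.0 to 97.9 TPM with DMSO and 207 to 221 TPM with A9 in MONO-MAC-6. Nearly all of that sum came from the tryptase genes TPSAB1 and TPSB2, which are close copies of each other, while the mast cell markers KIT and CPA3 were listed at 0 there. The 6 monocyte markers summed to 177 to 182 TPM with DMSO and 367 to 409 TPM with A9 in MOLM-13. In MONO-MAC-6 they summed to 2618 to 3929 TPM with DMSO and 5617 to 6167 TPM with A9. S100A9 moved most in TPM, from a mean of 72.5 to 272 TPM in MOLM-13 and from 2985 to 5670 TPM in MONO-MAC-6. ITGAM was lower with A9 in MOLM-13 (6.73 to 4.86 TPM) and level in MONO-MAC-6 (2.985 to 3.009 TPM). CD14, FCGR1A, CD68 and CSF1R had higher means with A9 in both lines. One sample in each line stood apart. The median absolute log2 deviation from the line's median was 0.403 in DMSO sample 1 of MONO-MAC-6 against 0.0551 to 0.0959 in the other samples of that line, and 0.223 in A9 sample 3 of MOLM-13 against 0.0425 to 0.154. Where leaving out one of these samples changed the call of a receptor, both values are given. Read depth per library is unknown, since TPM hold no counts.

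**Figure D1:**
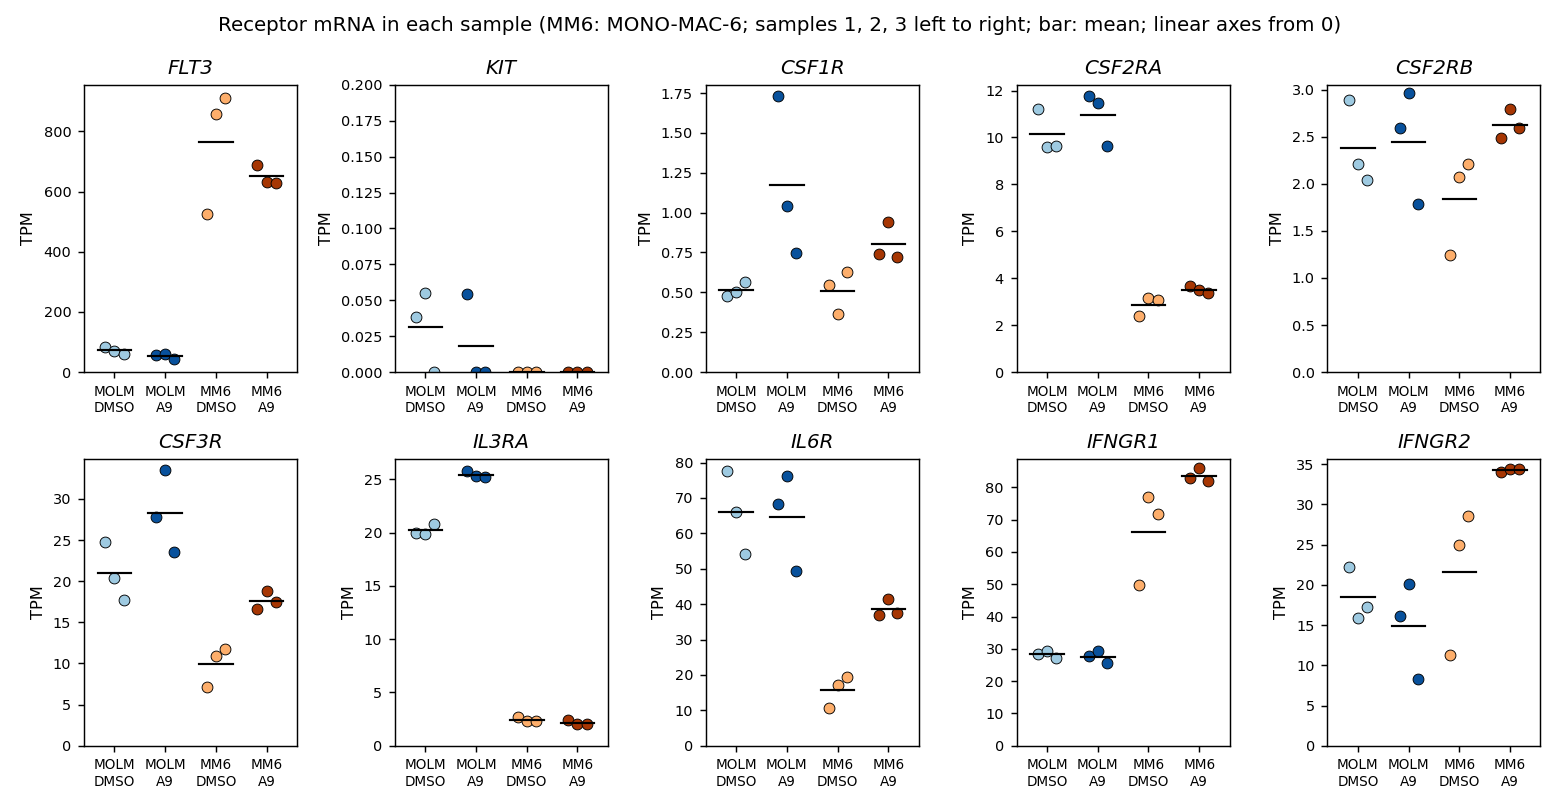
TPM (linear axes from 0) of the 10 receptors in the 3 samples of each group, with samples 1, 2 and 3 from left to right and the group mean as a bar. FLT3 in MONO-MAC-6 lies between 524 and 911 TPM, all above the MOLM-13 samples, and IL3RA in MONO-MAC-6 lies between 2.06 and 2.72 TPM, all below them.

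The question of the first comparison is how the receptors differ between the lines without A9. Of the 8 receptors tested, 6 were called between MONO-MAC-6 and MOLM-13 with DMSO, and 48.8% of all 12914 genes tested were called in that comparison, so a call between the lines is common. A gene was tested where its mean reached 1 TPM in a group, and called where the adjusted p of limma (Benjamini-Hochberg over all genes tested) was under 0.05. FLT3 and IFNGR1 were higher in MONO-MAC-6 (as were 30.4% of all genes), while IL3RA, IL6R, CSF2RA and CSF3R were lower (as were 18.4%). CSF2RB and IFNGR2 were not called, and KIT and CSF1R fell under the 1 TPM minimum. Each of the 6 receptors called had no overlap between the lines' DMSO samples, as did 59.1% of all genes tested. Each line has its own deposited table, so line and table cannot be told apart.

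**Figure D2:**
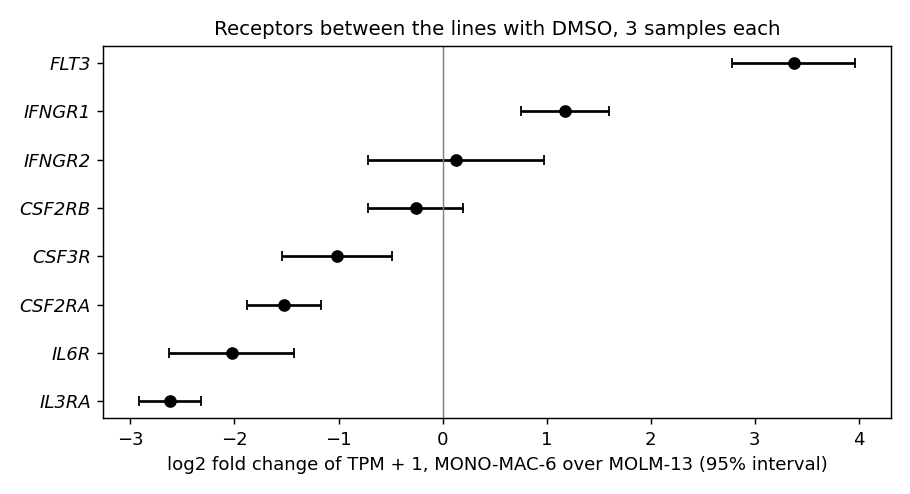
Fitted log2 fold change of TPM + 1, MONO-MAC-6 over MOLM-13 with DMSO, for the 8 receptors tested, with 95% intervals from limma over 3 samples a line. The intervals of FLT3 and IFNGR1 lie above 0, those of IL3RA, IL6R, CSF2RA and CSF3R below 0, and those of IFNGR2 and CSF2RB include 0.

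FLT3 (ENSG00000122025, chr13:28003274-28100592, minus strand) is the receptor for FLT3 ligand on haematopoietic progenitors. It was listed at 84.4, 71.1 and 59.4 TPM in the DMSO samples of MOLM-13 and at 524, 858 and 911 TPM in those of MONO-MAC-6. Every MONO-MAC-6 sample was above every MOLM-13 sample, and the means stood at a ratio of 10.7. By mean TPM, FLT3 was number 166 from the top among all genes in MONO-MAC-6 with DMSO and number 1620 in MOLM-13. The fitted log2 difference was 3.37 (limma, SE 0.24, adjusted p = 9.42e-05).

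With A9, FLT3 was at 55.4, 59.6 and 42.0 TPM in MOLM-13, where the lowest DMSO sample overlapped the highest A9 sample, and the log2 fold change was -0.45 (limma, SE 0.17, adjusted p = 0.587). The MONO-MAC-6 values were 689, 633 and 629 TPM with A9. These values lie above DMSO sample 1 and below DMSO samples 2 and 3, and the log2 fold change was -0.19 (limma, SE 0.21, adjusted p = 0.581). With DMSO sample 1 left out, FLT3 was lower with A9 by the test, with a log2 fold change of -0.44 (limma, SE 0.051, adjusted p = 0.000788). That fit called 24.8% of all genes, 10.3% of them all as lower. Without A9 sample 3 the MOLM-13 value was -0.30 (adjusted p = 0.774 by limma). FLT3-201, the coding transcript, made up 83.9% ± 0.70 (SD, n = 3) of FLT3 TPM in MOLM-13 with DMSO and 90.2% ± 1.16 (SD, n = 3) in MONO-MAC-6 with DMSO. FLT3-202, annotated as a target of nonsense-mediated decay, held 10.8% ± 1.61 and 7.59% ± 2.07 (SD, n = 3) in the same groups.

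KIT (ENSG00000157404, chr4:54657918-54740715, plus strand), the receptor for stem cell factor, was close to absent from both tables. It was listed at 0.0384, 0.0552 and 0 TPM in MOLM-13 with DMSO and at 0.0547, 0 and 0 TPM with A9. All 6 MONO-MAC-6 samples were listed at 0. Nearly all of the MOLM-13 signal was assigned to the retained-intron transcripts KIT-203 and KIT-204.

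CSF1R (ENSG00000182578, chr5:150053291-150113372, minus strand), the receptor for M-CSF on monocytes and macrophages, was low in both lines. In MOLM-13 it was at 0.474, 0.502 and 0.566 TPM with DMSO and at 1.73, 1.04 and 0.748 TPM with A9, with no overlap. It passed the 1 TPM minimum in MOLM-13 only through the A9 group, and its log2 fold change there was 0.50 (limma, SE 0.18, adjusted p = 0.529). In MONO-MAC-6 it was at 0.543, 0.365 and 0.625 TPM with DMSO and at 0.743, 0.940 and 0.723 TPM with A9, again with no overlap and under the minimum for a test. The coding transcript CSF1R-201 held 38.3% ± 33.1 (SD, n = 3) of CSF1R TPM in MOLM-13 with DMSO and 25.0% ± 23.5 (SD, n = 3) with A9. Retained-intron and decay transcripts held most of the remainder.

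The receptors that share CSF2RB were more abundant in MOLM-13 in their ligand-binding chains. IL3RA (ENSG00000185291, chrX:1336616-1382689, plus strand) binds interleukin 3 and is the antigen CD123. It was at 19.99, 19.89 and 20.77 TPM in MOLM-13 with DMSO and at 2.72, 2.31 and 2.35 TPM in MONO-MAC-6 with DMSO. No value of the lines overlapped, the means stood at a ratio of 0.122, and the log2 difference was -2.62 (limma, SE 0.12, adjusted p = 1.56e-05). With A9 it was at 25.7, 25.3 and 25.2 TPM in MOLM-13. Each A9 sample lay above each DMSO sample, but the log2 fold change of 0.32 (SE 0.076, 95% interval 0.13 to 0.50) was not called, with a limma adjusted p of 0.250. The MONO-MAC-6 values were 2.38, 2.08 and 2.06 TPM with A9, where the groups overlapped and the log2 fold change was -0.12 (adjusted p = 0.524 by limma). The difference of the A9 effect between the lines was -0.44 on the log2 scale (limma, SE 0.12, adjusted p = 0.0993).

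CSF2RA (ENSG00000198223, chrX:1268800-1310381, plus strand) binds GM-CSF. Like IL3RA it lies in the pseudoautosomal region, with copies annotated on X and Y. CSF2RA was at 11.2, 9.59 and 9.65 TPM in MOLM-13 with DMSO and at 2.40, 3.15 and 3.09 TPM in MONO-MAC-6 with DMSO, a log2 difference of -1.53 (limma, SE 0.15, adjusted p = 0.000271). With A9 it was at 11.8, 11.5 and 9.64 TPM in MOLM-13, overlapping DMSO. In MONO-MAC-6 it was at 3.68, 3.50 and 3.36 TPM with A9, each above each DMSO sample. Neither value was called, with log2 fold changes of 0.10 in MOLM-13 (adjusted p = 0.876 by limma) and 0.22 in MONO-MAC-6 (adjusted p = 0.354 by limma), the latter 0.13 without DMSO sample 1. The transcript with the highest share, CSF2RA-206, held 46.5% ± 2.99 (SD, n = 3) of CSF2RA TPM in MOLM-13 with DMSO and 35.9% ± 3.76 (SD, n = 3) in MONO-MAC-6 with DMSO.

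CSF2RB (ENSG00000100368, chr22:36913628-36940449, plus strand) is the shared signalling chain. It was the lowest of these chains in MOLM-13, at 2.89, 2.21 and 2.04 TPM with DMSO and 2.60, 2.97 and 1.79 TPM with A9. The MONO-MAC-6 values were 1.24, 2.07 and 2.21 TPM with DMSO and 2.49, 2.79 and 2.59 TPM with A9. The MOLM-13 groups overlapped and the MONO-MAC-6 groups did not. The log2 fold changes were 0.022 in MOLM-13 (adjusted p = 0.983 by limma) and 0.37 in MONO-MAC-6 (adjusted p = 0.272 by limma), or 0.21 without DMSO sample 1, and between the lines with DMSO it was -0.26 (adjusted p = 0.294 by limma), or -0.098 without that sample.

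The balance of binding to signalling chain differed with these levels. In MOLM-13 with DMSO the IL3RA to CSF2RB ratio was 6.92, 8.997 and 10.2, and in MONO-MAC-6 with DMSO it was 2.20, 1.11 and 1.06. With A9 the ratio in MONO-MAC-6 was 0.958, 0.743 and 0.795, each below each DMSO sample. That log2 change of -0.73 had an exact two-sided permutation p of 0.1, the smallest that 3 against 3 samples allow, and 0.4 after Benjamini-Hochberg adjustment over the 8 ratios computed. DMSO sample 1 held the highest ratio, and without it the log2 change was -0.39. The CSF2RA to CSF2RB ratio overlapped between A9 and DMSO in both lines.

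CSF3R (ENSG00000119535, chr1:36466043-36483278, minus strand), the G-CSF receptor of the granulocyte lineage, was at 24.8, 20.4 and 17.8 TPM in MOLM-13 with DMSO and at 7.19, 10.9 and 11.8 TPM in MONO-MAC-6 with DMSO. The lines did not overlap, and the log2 difference was -1.02 (limma, SE 0.22, adjusted p = 0.00935). With A9 it was at 27.8, 33.6 and 23.5 TPM in MOLM-13, where A9 sample 3 lay inside the DMSO range. The log2 fold change there was 0.41 (limma, SE 0.17, adjusted p = 0.630). In MONO-MAC-6 it was at 16.6, 18.8 and 17.5 TPM with A9, each above the highest DMSO sample, and the log2 fold change was 0.79 (limma, SE 0.19, adjusted p = 0.0927). Without DMSO sample 1 the MONO-MAC-6 value was 0.59 (limma, SE 0.077, adjusted p = 0.00135), where 24.8% of all genes were called. With median-ratio scaling of the samples it was 0.64 (adjusted p = 0.0267 by limma), where 4.38% of all genes were called. Both values were past the threshold. Removing each sample's trend on transcript length also brought CSF3R past it, at 0.48 in MOLM-13 (adjusted p = 0.0405 by limma) and 0.61 in MONO-MAC-6 (adjusted p = 0.00852 by limma), where 1.53% and 9.32% of all genes were called. FLT3 was likewise called lower in both lines, at -0.34 and -0.44 (limma adjusted p = 0.0277 and 0.0175). Coding transcripts held 54.6% ± 0.67 (SD, n = 3) of CSF3R TPM in MOLM-13 with DMSO and 57.4% ± 2.66 (SD, n = 3) in MONO-MAC-6 with DMSO.

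IL6R (ENSG00000160712, chr1:154405193-154469450, plus strand), the interleukin 6 binding chain, was the one receptor that limma called with A9, higher in MONO-MAC-6. It was at 10.6, 17.3 and 19.3 TPM in MONO-MAC-6 with DMSO and at 37.0, 41.5 and 37.5 TPM with A9. The lowest A9 sample was above the highest DMSO sample. The log2 fold change was 1.28 (SE 0.22, 95% interval 0.76 to 1.81, limma adjusted p = 0.0337). In MOLM-13 it was at 77.7, 66.1 and 54.3 TPM with DMSO and at 68.2, 76.2 and 49.3 TPM with A9. Those groups overlapped, and the log2 fold change was -0.040 (95% interval -0.51 to 0.43, limma adjusted p = 0.969). With DMSO, IL6R was lower in MONO-MAC-6 than in MOLM-13, with a log2 difference of -2.03 (limma, SE 0.25, adjusted p = 0.000859), and the A9 samples of MONO-MAC-6 still lay below every MOLM-13 sample.

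The call of IL6R in MONO-MAC-6 depended on the samples in the fit. With DMSO sample 1 left out the log2 fold change was 1.04 (adjusted p = 7.73e-05 by limma), where 24.8% of all genes were called. Without DMSO sample 3 it was 1.44 (adjusted p = 0.0462 by limma), where 1.64% were called. Without DMSO sample 2, A9 sample 1, A9 sample 2 or A9 sample 3 it was 1.23 to 1.37 and no longer called, with limma adjusted p-values of 0.103 to 0.185. The difference of the A9 effect between the lines, which cannot be told apart from the difference in dose, was 1.32 on the log2 scale (limma, SE 0.31, adjusted p = 0.0536) and just missed the threshold. It was 1.08 without DMSO sample 1 of MONO-MAC-6 (limma adjusted p = 0.0431, where 4.08% of all genes were called) and 1.12 with median-ratio scaling (limma adjusted p = 0.00537, where 3.83% were called). The monocyte markers were higher in sum with A9 in both lines, mainly through S100A9. CD14 and CD68 rose more in proportion in MONO-MAC-6 than in MOLM-13. The mast cell markers were higher in sum in MONO-MAC-6, as given above. IL6R was called in MONO-MAC-6 alone, and the part of these markers in that result was not tested. In bulk RNA, more cells with IL6R and more IL6R RNA per cell cannot be told apart.

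**Figure D3:**
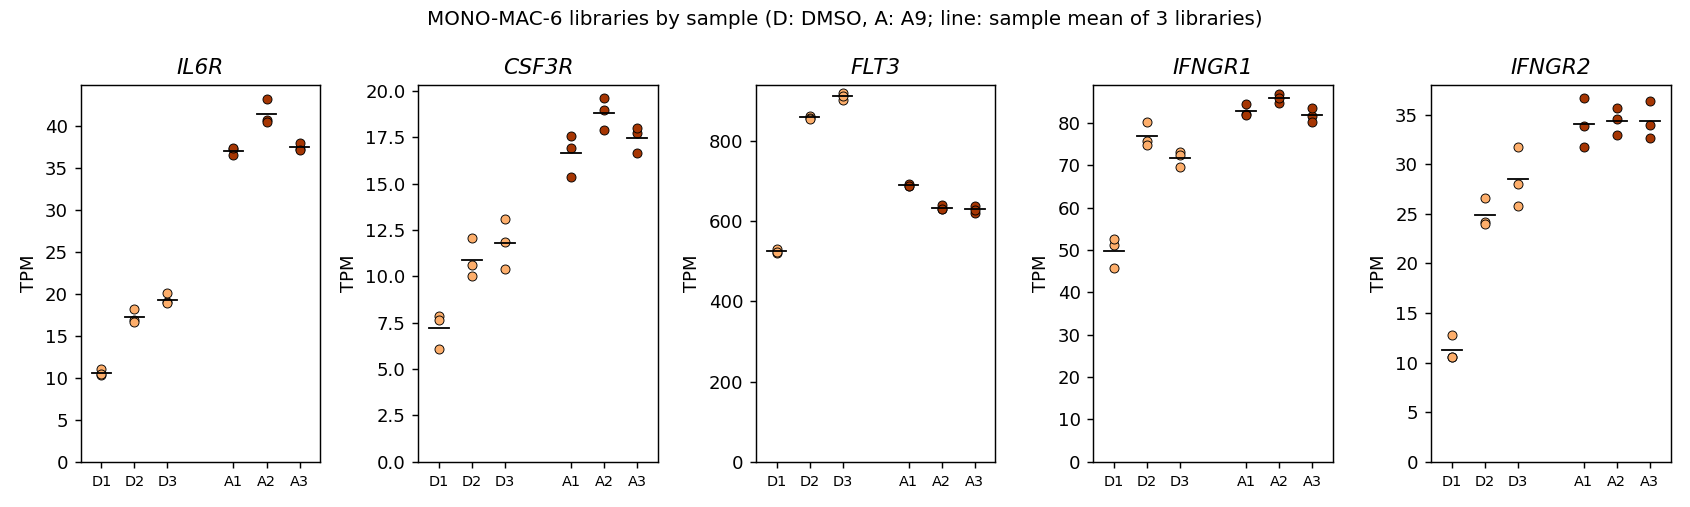
TPM (linear axes from 0) of IL6R, CSF3R, FLT3, IFNGR1 and IFNGR2 in the 18 single libraries of MONO-MAC-6, in columns by sample, with the sample mean as a bar. The 3 libraries of a sample lie close together, and DMSO sample 1 (FLT3 519 to 531 TPM) lies below the other DMSO samples for all 5 receptors.

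Most of the IL6R signal was assigned to IL6R-202, the transcript that holds the exon shown above. IL6R-202 also runs 2573 bases beyond the end of IL6R-201. The shares therefore do not measure the exon alone, and membrane and soluble forms cannot be told apart by them. IL6R-202 was at 9.91, 15.4 and 17.0 TPM in MONO-MAC-6 with DMSO and at 31.5, 34.9 and 32.5 TPM with A9, and its share of IL6R TPM was 90.0% ± 2.98 and 85.3% ± 1.30 (SD, n = 3). IL6R-201, which lacks the exon in capitals, was at 0.0170, 0.499 and 0.869 TPM with DMSO and at 1.46, 1.61 and 1.39 TPM with A9. In MOLM-13 the share of IL6R-201 was 2.61% ± 1.47 (SD, n = 3) with DMSO and 1.79% ± 1.17 (SD, n = 3) with A9. Fitted as single transcripts, IL6R-202 in MONO-MAC-6 had a log2 fold change of 1.202 (limma, SE 0.20, adjusted p = 0.104) and IL6R-201 one of 0.81 (limma, SE 0.25, adjusted p = 0.247). None of the 20 receptor transcripts tested in MONO-MAC-6 was called, beside 0.406% of all 48474 transcripts, and 8 of them had an unadjusted p under 0.05, beside 16.3% of all transcripts. With DMSO sample 1 left out, IL6R-202, IL6R-203 and FLT3-201 were called, beside 3.28% of all transcripts. In MOLM-13 limma called none of 22 receptor transcripts, beside 0.00982% of all 40728, and 3 had an unadjusted p under 0.05, beside 5.34%.

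The 3 genes that followed IL6R most closely over the 6 MONO-MAC-6 samples, by the smallest root mean square difference of centred log2(TPM + 1) among 9280 genes averaging 5 TPM or more, were SPARC, a matrix glycoprotein (difference 0.032), MS4A7, a membrane protein of macrophages (0.057), and SLC7A11, the cystine transporter (0.057). SPARC was at 82.0, 139 and 153 TPM with DMSO and at 279, 314 and 289 TPM with A9. Its pattern included the low DMSO sample 1. These genes were chosen for their likeness to a called gene over the same samples, so their levels are a description.

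The 2 chains of the interferon gamma receptor differed in how they compared between the lines. IFNGR1 (ENSG00000027697, chr6:137197484-137219449, minus strand), the ligand-binding chain, was at 28.3, 29.4 and 27.1 TPM in MOLM-13 with DMSO and at 49.8, 76.9 and 71.8 TPM in MONO-MAC-6 with DMSO. The lines did not overlap, and the log2 difference was 1.17 (limma, SE 0.17, adjusted p = 0.00200). With A9 it was at 27.9, 29.5 and 25.5 TPM in MOLM-13 (log2 fold change -0.036, limma adjusted p = 0.929). The MONO-MAC-6 values were 82.8, 85.9 and 81.8 TPM with A9, above every DMSO sample, with a log2 fold change of 0.36 (limma, SE 0.17, adjusted p = 0.286). Without DMSO sample 1 that value was 0.17 (limma, SE 0.051, adjusted p = 0.0462), where 14.5% of all genes were called higher.

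IFNGR2 (ENSG00000159128, chr21:33402896-33479348, plus strand), the signalling chain, was at 22.2, 15.9 and 17.3 TPM in MOLM-13 with DMSO and at 11.3, 24.9 and 28.5 TPM in MONO-MAC-6 with DMSO. The lines overlapped through DMSO sample 1 of MONO-MAC-6, and the log2 difference of 0.13 (limma, SE 0.35, adjusted p = 0.785) became 0.52 (adjusted p = 0.0348 by limma) without it, where 61.8% of all genes were called. With A9 it was at 16.2, 20.1 and 8.36 TPM in MOLM-13, and the log2 fold change was -0.36 (limma, SE 0.31, adjusted p = 0.870), or -0.022 without A9 sample 3. In MONO-MAC-6 it was at 34.1, 34.4 and 34.3 TPM with A9, close together and above every DMSO sample, with a log2 fold change of 0.74 (limma, SE 0.32, adjusted p = 0.260). With DMSO sample 1 left out that value was 0.35 (limma, SE 0.067, adjusted p = 0.00750), where 14.5% of all genes were called higher. The IFNGR1 to IFNGR2 ratio in MONO-MAC-6 was 4.40, 3.09 and 2.52 with DMSO and 2.43, 2.50 and 2.38 with A9, with an exact two-sided permutation p of 0.1, the smallest possible, and 0.4 after adjustment over the 8 ratios. Its log2 change of -0.41 was -0.19 without DMSO sample 1. The difference of the A9 effect between the lines was 1.10 for IFNGR2 (limma, SE 0.49, adjusted p = 0.277).

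Counted over the list, A9 against DMSO in MOLM-13 gave no limma call among 9 receptors tested, beside 0.121% of all 11590 genes. At an unadjusted p under 0.05 there were 4 of 9 (CSF1R, CSF3R, FLT3 and IL3RA), beside 7.89% of all genes. Groups without overlap were found for 2 of the 9, CSF1R and IL3RA, both higher with A9, beside 8.59% of all genes in that direction. CSF1R was tested in MOLM-13 only because its A9 mean reached the 1 TPM minimum. Its place in both counts is therefore no evidence of a rise. In MONO-MAC-6 limma called 1 of 8 receptors, beside 3.37% of all 12862 genes. In 6 of the 8 (CSF2RA, CSF2RB, CSF3R, IL6R, IFNGR1 and IFNGR2) every A9 sample was above every DMSO sample, beside 27.2% of all genes. Without DMSO sample 1 limma called 5 of 8, beside 24.8% of all genes, with IL6R, CSF3R, IFNGR2 and IFNGR1 higher, beside 14.5%, and FLT3 lower, beside 10.3%. The median log2 fold change in MONO-MAC-6 was 0.36 over the 8 receptors and 0.16 over all genes tested, and the latter became 0.020 with median-ratio scaling. The receptor median under that scaling is not given here, so 0.36 cannot be set against 0.020. Under that scaling the 8 receptors kept their signs. For the difference of the A9 effect between the lines, limma called 0 of 9 receptors, beside 2.99% of all 13401 genes, and 3 had an unadjusted p under 0.05, beside 17.7% of all genes.

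**Figure D4:**
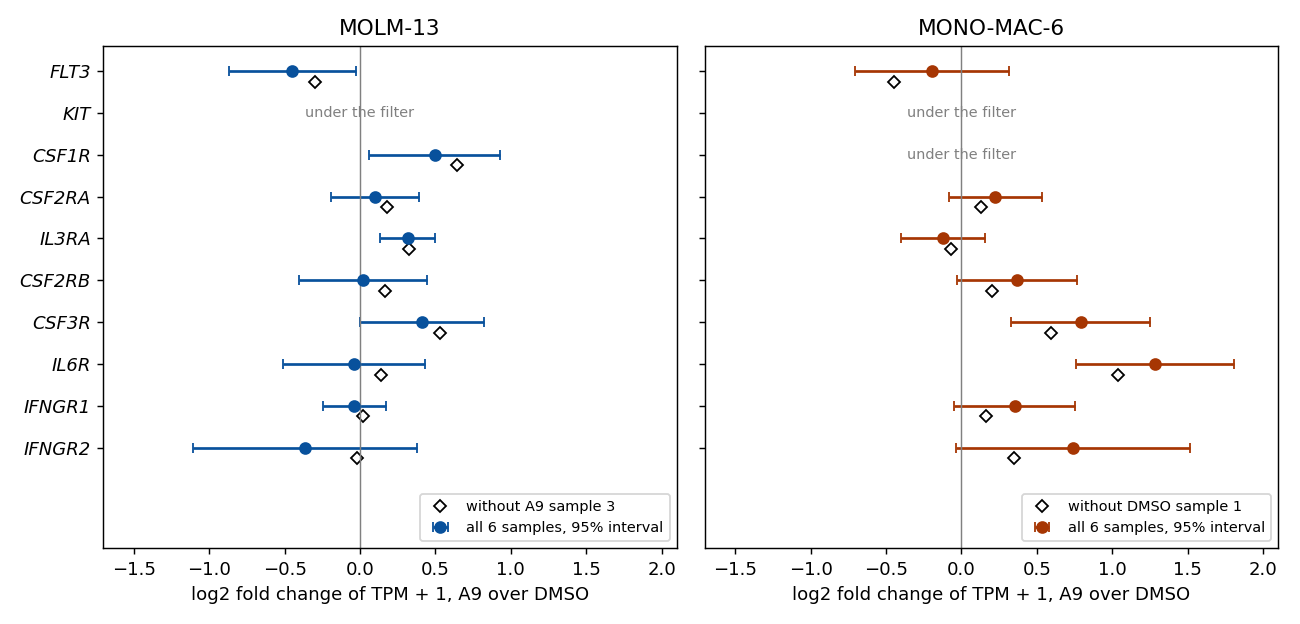
Fitted log2 fold change of TPM + 1, A9 over DMSO, for each receptor tested in MOLM-13 and MONO-MAC-6 (filled points with 95% intervals from limma, 3 samples a group). Open diamonds give the value without the sample that stood apart in each line, which is 1.04 for IL6R and -0.44 for FLT3 in MONO-MAC-6.

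The order of the levels differed between the lines. In MOLM-13 with DMSO, FLT3 and IL6R led with means of 71.6 and 66.1 TPM and overlapped each other. IFNGR1 followed at 28.3 TPM, then CSF3R, IL3RA and IFNGR2 at 21.0, 20.2 and 18.5 TPM, which overlapped as neighbours. CSF2RA (10.2 TPM), CSF2RB (2.38 TPM), CSF1R (0.514 TPM) and KIT each stood below the one before without overlap. In MONO-MAC-6 with DMSO, FLT3 stood far above IFNGR1 (764 against 66.2 TPM), with IFNGR2, IL6R and CSF3R next at 21.6, 15.7 and 10.0 TPM. With A9 in MONO-MAC-6 IL6R took the third place, at 38.6 TPM, above IFNGR2 at 34.3 TPM with no overlap.

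The ligands of these receptors were low in the same libraries. CSF2, which encodes GM-CSF, and IFNG were listed at 0 in all 12 samples, and CSF3, IL3, IL34 and IL6 did not exceed 0.172 TPM. FLT3LG, the FLT3 ligand, had a mean of 3.71 TPM in MOLM-13 and 5.61 TPM in MONO-MAC-6 with DMSO, a log2 difference of 0.49 (adjusted p = 0.0262 by limma). CSF1, the ligand of CSF1R, had a mean of 0.0218 TPM in MOLM-13 and 1.08 TPM in MONO-MAC-6 with DMSO, a log2 difference of 1.01 (adjusted p = 0.00196 by limma). CSF1 passed the 1 TPM minimum only through MONO-MAC-6, the line where it is higher, so that p-value is no support for a difference. Neither FLT3LG nor CSF1 was called with A9 in a line where it was tested. IL6ST, the partner of IL6R, was at 0.0688, 0.688 and 1.14 TPM with DMSO and at 2.04, 5.28 and 1.79 TPM with A9 in MONO-MAC-6 (log2 fold change 1.26, limma adjusted p = 0.151, or 0.99 with adjusted p = 0.139 without DMSO sample 1). It was tested there only because its A9 mean passed the 1 TPM minimum.

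Ligands, partner chains, JAK and STAT genes, adaptors, feedback genes and output genes of these receptors were taken as 7 lists with 99 genes. With A9 in MOLM-13 limma called none of the 75 tested, beside 0.121% of all genes, and 7 of them had an unadjusted p under 0.05, beside 7.89% of all genes. For MONO-MAC-6 it called 3 of 77, 2 higher and 1 lower, beside 3.37% of all genes. Among the RAS, PI3K and SRC adaptors the kinase FGR, which acts beside myeloid receptors, was higher. FGR went from 7.76, 11.9 and 12.4 TPM with DMSO to 54.5, 72.3 and 65.5 TPM with A9 (log2 fold change 2.49, SE 0.20, limma adjusted p = 0.00289). Among the STAT5 and STAT3 output genes CCND3, cyclin D3, was lower, from 122, 137 and 151 TPM to 92.8, 79.3 and 83.8 TPM (log2 fold change -0.67, SE 0.11, limma adjusted p = 0.0283).

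None of the 10 JAK and STAT genes tested was called in MONO-MAC-6, beside 3.37% of all genes, so no call is common for a list of this size. Their median log2 fold change was 0.32 beside 0.16 over all genes. STAT3 and SOCS3, which act downstream of IL6R, had log2 fold changes of 0.16 (adjusted p = 0.571 by limma) and 0.049 (adjusted p = 0.828 by limma). The 9 interferon gamma output genes tested had a median of 0.055 and no call, beside the same 3.37% of all genes. With DMSO sample 1 left out, limma called 6 of the JAK and STAT genes, 4 higher and 2 lower with a list median of 0.17, and 5 of the interferon gamma output genes, 2 higher and 3 lower with a median of -0.12. Over the 7 lists it then called 30 of 78 genes, 17 higher and 13 lower, beside 24.8% of all genes.

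Between the lines with DMSO, limma called 42 of 80 genes of these lists, 27 higher and 15 lower in MONO-MAC-6, beside 48.8% of all genes. Of the interferon gamma output genes 6 of 9 were higher and none lower (CXCL10, GBP5, SOCS1, GBP2, CIITA and TAP1), beside 30.4% of all genes higher. Their log2 differences ran from 1.003 for TAP1 to 2.95 for GBP5. Only 6 genes of that list reached the 1 TPM minimum in MOLM-13 with DMSO or A9. The rest of the 9 were tested only through MONO-MAC-6 and could hardly come out lower there. Their place in this count is therefore no evidence of a difference. A link to the level of IFNGR1 was not tested. Of the partner and other cytokine receptors 11 of 14 were called, 6 higher and 5 lower. Of the JAK and STAT genes 3 of 10 were called, with JAK3 and STAT2 higher and JAK1 lower.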

How the data were processed

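The deposited files hold TPM per Ensembl transcript, 1 table per line; each library sums to 1000000. Per the submitters' processing notes, kallisto, limma and GRCh38 were named, with no version, and the annotation release is not given in the sources used here. Per the labels, poly(A) RNA was sequenced with a stated target depth, but TPM keep no counts, so no count test was possible. Transcripts were matched to GENCODE 29 (162526 of 207175, holding 89.8% to 91.4% of TPM) and summed by symbol. Unmatched transcripts were left out, so newer isoforms of a receptor could be missing.

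Libraries sharing line, treatment and first number were averaged, since the labels give 3 replicates a group and list 9 libraries. Genes averaging 1 TPM or more in either group were fitted as log2(TPM + 1) with limma 3.58.1 in R 4.3.3 (eBayes with trend and robust). Fold changes are on that scale, which understates the change of low genes. P-values are two-sided. A9 was compared with DMSO within each line, the lines with DMSO, and the A9 effects by an interaction. Ratios of chains used exact permutation tests. The method was tested on simulated data.

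The receptors and lists were chosen with earlier results of these data known. The rule named every receptor, list genes past the threshold for A9 in a line, the 3 genes closest to a called receptor, and transcripts with at least 10% of their gene; 1 such list gene is not reported here. Receptors with shared sequence in the pseudoautosomal copies (CSF2RA, IL3RA) have less certain values. Alternatives were a pseudocount of 0.1, no minimum or 5 TPM, a threshold of 0.01, other uses of the libraries, median-ratio scaling, a lowess length correction, a replicate block, a fit of 12 samples, and leaving out samples. Tables and figures used Python 3.11.15, pandas 2.3.3, scipy 1.17.1 and matplotlib 3.10.9.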

Additional observations from a re-analysis of the deposited data

How the results depend on the processing

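Receptors called for A9 in MOLM-13 numbered 0 (beside 0.121% of all genes). They became 5 with libraries averaged by second number (where 46.9% of all genes were called). With every library as its own sample they were 4 (15.0%), and with the length trend removed 2 (1.53%). In MONO-MAC-6 the 1 called (3.37% of all genes) became 0 with no minimum (0.985%) and 0 at a threshold of 0.01 (0.847%). With the same uses of the libraries it became 7 and 5 (67.6% and 43.4%). It was 3 with the length trend removed (9.32%), 2 with scaling (4.38%) and 2 in the fit of 12 samples (10.4%). Over leaving out each sample it was 0 to 5, beside 0.459% to 24.8% of all genes (5 without DMSO sample 1). Libraries that share a first number differ less (SD 0.0718 and 0.0755) than those that share a second number (0.174 and 0.188), so the fits with second numbers or single libraries treat near repeats as samples. The difference between the lines became 7 and 6 with those uses (63.4% and 41.9%), 1 with the length trend removed (5.53%) and 1 with scaling (3.83%). Over leaving out each sample it was 0 to 1, beside 1.47% to 4.08% of all genes. It was 1 without MONO-MAC-6 DMSO sample 1 (4.08%) and 1 without DMSO sample 3 of that line (3.04%). It was also 1 without both samples that stood apart (3.86%), an alternative chosen after seeing the data. Receptor transcripts called went from 0 to 7 in MOLM-13 and to 15 in MONO-MAC-6 by second number (21.8% and 45.2% of all transcripts). Over leaving out each sample they were 0 to 3 in MONO-MAC-6, beside 0% to 3.28% of all transcripts. Pathway genes called in MONO-MAC-6 went from 3 to 8 with scaling (4.38% of all genes) and to 1 to 30 over leaving out each sample (0.459% to 24.8%). Between the lines with DMSO they were 25 to 52 instead of 42 over leaving out each sample, beside 35.9% to 61.8% of all genes (25 without MOLM-13 DMSO sample 2). For the difference of the A9 effect they were 2 to 4 instead of 4, beside 1.47% to 4.08%. The cause was not tested for any of these.

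These values turned sign. For A9 in MOLM-13, IL6R was 0.082 with the length trend removed and 0.0072 with scaling, and -0.17 to 0.14 over leaving out each sample. IFNGR1 was 0.0038 with the length trend removed, 0.0099 with scaling, and -0.084 to 0.018 over leaving out each sample, and CSF2RB was -0.086 to 0.17. Between the lines with DMSO, IFNGR2 was -0.0071 with the length trend removed and -0.11 to 0.52 over leaving out each sample. For the difference of the A9 effect, FLT3 was -0.10 with the length trend removed and -0.14 without both samples that stood apart, CSF2RA was -0.046 with scaling and -0.050 without both samples, and CSF2RB was -0.064 with the length trend removed. The log2 IL6R to IL6ST ratio changed with A9 by -1.49 in MONO-MAC-6 but by 0.019 as a ratio of TPM + 1, and by -0.52 without DMSO sample 1. In MOLM-13 it changed by 0.022, by -0.049 as a ratio of TPM + 1, by -0.013 by second number, and by -0.69 to 0.61 over leaving out each sample. The CSF2RA to CSF2RB ratio in MOLM-13 changed by -0.038 to 0.20 over leaving out each sample. The cause of these turns was not tested.

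Whether the first numbers pair DMSO with A9 samples could not be settled. Across genes, deviations of same-numbered samples correlated at 0.408, -0.075 and 0.712 in MOLM-13 and at -0.0389, 0.1 and -0.13 in MONO-MAC-6. Samples with different numbers correlated at -0.726 to 0.68 in MOLM-13, so the values there cannot decide the question. With the first number as a replicate block, receptors called were 0 in MOLM-13 (0.751% of all genes) and 0 in place of 1 in MONO-MAC-6 (0.793%). They were 5 in place of 6 between the lines (31.8%) and 0 for the difference of the A9 effect (1.65%).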
